A study of Mus musculus with 8 samples.

Results

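Aminoacyl-tRNA synthetases are the enzymes that join each amino acid to its transfer RNA. They were described here as 34 genes of 19505 named genes on the arrays. The members were chosen by gene symbol alone, with 1 row per symbol, and no measured value decided which gene entered, since each of the 34 symbols had exactly 1 row. Of the 34 members, 18 serve the cytosol and 16 carry the mitochondrial names. The genes Aars and Dars were not analysed here.

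RNA levels were read on microarrays from mouse leukaemia stem cells. These were GFP-positive granulocyte-macrophage progenitors (GMPs) from the marrow of animals that had received MLL-AF9 leukaemia by transplant. All groups share the MLL-AF9 fusion oncogene, which drives self-renewal of myeloid progenitors, and the passage through a recipient mouse. The groups were 3 arrays of Pik3ca-/- cells (KO) and 5 arrays of WT cells, where Pik3ca is the gene of p110-alpha, a catalytic subunit of PI3K. The sources used here do not give age, sex, strain or the way in which Pik3ca was deleted. Nor do they state that each array had its own mouse, so a p-value covers only the spread between these samples, which may be technical. In bulk samples, fewer cells of a type and less RNA per cell cannot be told apart.

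Every cell needs a synthetase for each amino acid in its cytosol. Synthetases are also needed in its mitochondria, where the transfer RNAs are of mitochondrial origin. Most mitochondrial enzymes have nuclear genes of their own, while Gars and Kars each supply both compartments from 1 gene. In the cytosol, several synthetases sit in the multisynthetase complex, held together by the scaffolds AIMP1, AIMP2 and EEF1E1. Uncharged transfer RNA is sensed by the kinase GCN2, whose target ATF4 is known to raise many cytosolic synthetase genes through short amino acid response elements. PI3K and mTORC1 are known to act on amino acid supply and translation.

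Values are the deposited log2 values, with array medians from 5.26 to 5.51. WT array 3 stood apart, with a mean correlation with the other arrays of 0.921 across 9920 genes against 0.968 to 0.972 for the rest, and results that rest on it are given with and without it. Pik3ca itself was 8.73, 9.31 and 9.40 in KO and 9.48, 9.57, 8.41, 9.51 and 9.58 in WT arrays 1 to 5. The difference was -0.16, and it was -0.39 without WT array 3. All 3 KO arrays then lay below the WT arrays (exact permutation p = 0.0286 over 35 splits). Such a lack of overlap without WT array 3, in either direction, was found in 5.55% of all tested genes. Neither difference checked the labels, since the deleted part and the probes' place in the gene are not given. All 12 GMP and primary granule markers on a fixed list were bright enough to test, at a median percentile of 98.8 of all rows of an array. Of B cell markers, 1 of 5 in the table was bright enough to test, and of T and NK cell markers 3 of 6. Of stromal and endothelial markers it was 2 of 6, and of erythroid markers 1 of 3. Of the 6 tested mast, basophil and eosinophil markers, 5 had a difference below 0, with a median of -0.52 and a range from -2.19 to 0.76. The mean of the 8 such markers in the table ran from 6.29 to 6.42 in KO and from 6.52 to 7.20 in WT. The mean of the 6 megakaryocyte and platelet markers ran from 6.15 to 6.47 in KO and from 5.89 to 10.54 in WT, highest on WT array 1. That of the 6 monocyte and macrophage markers ran from 9.32 to 9.75 in KO and from 9.63 to 10.20 in WT, and 5 of the 6 had a difference below 0. In 2 of them the KO arrays lay wholly below the WT arrays, against 3.09% of all tested genes without overlap in either direction. These were Ms4a6c with a difference of -1.14 (exact permutation p = 0.0357) and the myeloid factor Irf8 with -0.97 (exact permutation p = 0.0179). The 12 GMP and primary granule markers had a median difference of -0.03, with 5 above 0 and 7 below. Without WT array 3 their median was -0.05, with 3 above 0. In that list, Cd34 was 6.95 ± 1.16 (SD, n = 3) in the KO arrays against 8.95 ± 1.42 (SD, n = 5) for WT. The groups overlapped in Cd34 (exact permutation p = 0.0893). These 3 markers, Ms4a6c, Irf8 and Cd34, were named after their values were seen, and limma gave each an adjusted p of 0.998. All 3 had an unadjusted limma p under 0.05, against 2.84% of all tested genes. The part of such cells in the synthetase values was not tested.

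No synthetase gene was called between KO and WT by limma after adjustment over all tested genes. A gene was tested where it was brighter than the median row on at least 3 of the 8 arrays, which held for 33 of the 34 members, 18 cytosolic and 15 mitochondrial. At a threshold of 0.05 on the adjusted p, limma called 0 of these 33 and 0% of all 9920 genes. The lowest adjusted p among the synthetases was 0.998. At an unadjusted p under 0.05 limma had 1 of 33 members, against 2.84% of all genes. That member, Lars2, was lower in KO, against 1.37% of all genes, and 0 members were higher in KO, against 1.47%. The count did not hold under other settings, and was 0 with quantile normalization (unadjusted limma p of Lars2 = 0.0771), median centring (0.0568) or a trended robust prior (0.0693). It was also 0 when KO array 2 or 3 or WT array 1 or 2 was left out, and it was 3 (Lars2, Rars2 and Tars) with the replicate number as a block. In that block fit the difference rests on arrays 1 to 3 of each group. For 0 of the 33 did the KO arrays lie wholly outside the WT range, against 3.09% of all genes, and without WT array 3 this was again 0, against 5.55%. The 95% interval of a member's difference reached 0.41 to 1.63 log2 units to either side, with a median of 0.71. These intervals are not adjusted for the number of genes tested, and that of Lars2, from -1.04 to -0.03, left out 0. Differences smaller than the reach of an interval were not detectable with these arrays, and a call after adjustment needs larger ones.

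As a class, the cytosolic synthetases had a median KO minus WT difference of 0.22, with 11 of 18 above 0. The 15 tested mitochondrial members had a median of 0.13, with 12 above 0. Over all tested genes the median was 0.04, and 56% were above 0. With WT array 3 left out, the cytosolic median was -0.06 with 6 of 18 above 0, the mitochondrial median was 0.07 with 8 of 15 above 0, and 50.1% of all genes were above 0. The cytosolic median above 0 thus rested on WT array 3. Centring each array on its median gave 14 of 18 cytosolic and 13 of 15 mitochondrial members above 0, with medians of 0.26 and 0.18. That setting also moved the median of all tested genes up, to 0.09.

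**Figure D1:**
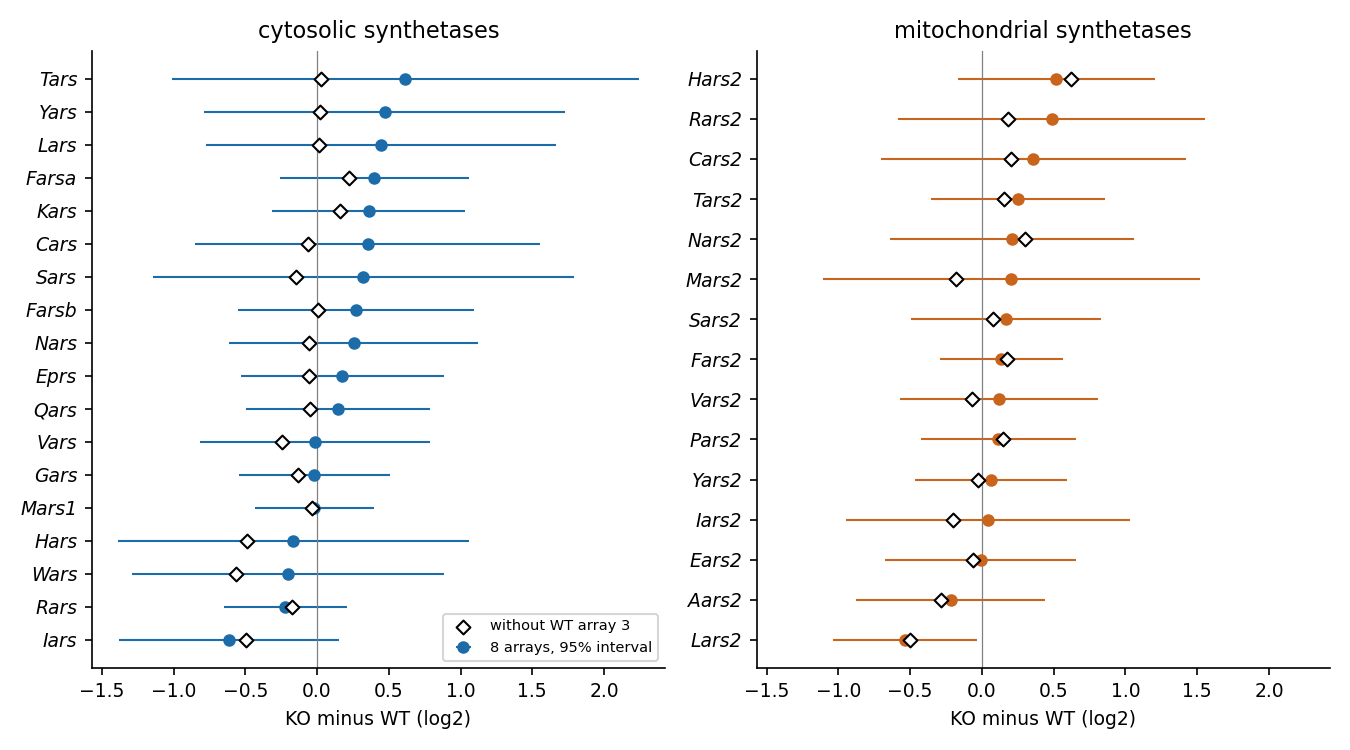
KO minus WT difference of each tested synthetase on the log2 scale, cytosolic at left and mitochondrial at right. Filled points are differences over 8 arrays with 95% intervals from limma, and open diamonds are differences without WT array 3. The cytosolic diamonds lie closer to 0 or below it, with 6 of 18 above 0.

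Promoters were searched because ATF4 is known to act on cytosolic synthetase genes, and the sites found are shown since they mark which members carry its letters. Windows from 250 bases before to 50 after a start site, from RefSeq on GRCm38.p6, were at hand for 25 of the 34 members, 11 cytosolic and 14 mitochondrial. The core letters TGATGNAA of the amino acid response element, on either strand, were found in 4 of 11 cytosolic members and 0 of 14 mitochondrial members, against 3.97% of all 32851 windows. A member was counted if any of its windows matched, while the share over all is per single window. A gene with several start sites thus has more chances of a match, and the shares are not strictly alike. The 4 sites are shown as 30 bases each in the direction of the gene, with the matching letters in capitals.
Gars: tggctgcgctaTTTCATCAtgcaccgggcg
Iars: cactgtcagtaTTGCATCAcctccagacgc
Tars: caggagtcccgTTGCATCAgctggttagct
Yars: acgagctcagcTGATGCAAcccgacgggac

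These stretches lie at chr6:55037960-55037989 (+) for Gars, chr13:49682126-49682155 (+) for Iars, chr15:11399655-11399684 (-) for Tars and chr4:129189895-129189924 (+) for Yars. The letters begin 30 bases before the start site in Gars and 15 before it in Tars, and 8 and 4 bases into the transcript in Iars and Yars. Gars, Iars and Tars hold the reverse complement of the core, and Iars and Tars share all 8 letters, which are the reverse complement of those in Yars. The 4 genes did not share a direction between KO and WT, with differences of -0.02 in Gars, -0.61 in Iars, 0.62 in Tars and 0.47 in Yars. Without WT array 3 these were -0.13, -0.50, 0.03 and 0.02. The E-box CACGTG, a palindrome bound by MYC and related factors, was in 3 of 11 cytosolic members (Farsb, Iars and Tars). It was in 1 of 14 mitochondrial members (Ears2), against 7.15% of all windows. The ETS-type letters ACTTCCG were in Farsa and Mars1 and in Ears2 and Rars2, against 6.42% of all windows. None of the 3 motifs is contained in another. A match describes letters in a window and is not a test of a factor.

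Among cytosolic enzymes, isoleucyl-tRNA synthetase had the smallest unadjusted limma p, at 0.103. Iars was 8.79, 8.78 and 7.74 in KO arrays 1 to 3 and 8.70, 9.33, 9.52, 9.21 and 8.51 in WT arrays 1 to 5. KO array 3 was the lowest of all, and the other KO arrays lay inside the WT range. The difference was -0.61 with a standard error of 0.34, and the exact two-sided permutation p over 56 splits was 0.161, where the smallest possible is 0.0179. It was -0.50 without WT array 3, and without KO array 3 it was -0.27.

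The phenylalanyl enzyme is built of alpha and beta subunits, encoded by Farsa and Farsb. Farsa was 12.46, 12.27 and 12.14 in KO and 12.12, 12.21, 11.20, 12.33 and 11.60 in WT, a difference of 0.40 with a standard error of 0.29 (exact permutation p = 0.214). Farsb was 10.93, 11.22 and 10.66 in KO and 11.29, 10.82, 9.60, 10.74 and 10.87 in WT, a difference of 0.27 with a standard error of 0.36 (exact permutation p = 0.679). Both subunit genes were lowest on WT array 3. Farsa differed by 0.23 and Farsb by 0.01 when it was left out.

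The lysyl and glycyl enzymes are each made from 1 gene for both compartments. Kars was 14.20, 14.54 and 14.11 in KO and 14.46, 13.94, 13.14, 14.02 and 14.05 in WT, a difference of 0.36 with a standard error of 0.30 (exact permutation p = 0.286). Gars was 13.88, 14.29 and 13.81 in KO and 14.21, 14.28, 13.56, 13.99 and 14.01 in WT, a difference of -0.02 with a standard error of 0.23 (exact permutation p = 0.964). The KO and WT arrays overlapped in both genes, and WT array 3 was again the lowest. Without it, Kars differed by 0.16 and Gars by -0.13, and Gars turned to 0.03 after median centring.

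Rars, the arginyl enzyme of the complex, varied little. It was 9.13, 9.44 and 9.02 in KO and 9.36, 9.42, 9.59, 9.38 and 9.33 in WT, with KO array 2 inside the WT range and the other KO arrays below it. The difference was -0.22 with a standard error of 0.19 (exact permutation p = 0.125), and -0.18 without WT array 3.

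Differences of the remaining cytosolic members are given by sign. Above 0 were Tars (threonyl) at 0.62, Yars (tyrosyl) at 0.47, Lars (leucyl) at 0.45, Cars (cysteinyl) at 0.35 and Sars (seryl) at 0.32. Nars (asparaginyl) was at 0.25, Eprs, a fused glutamyl and prolyl enzyme, at 0.18 and Qars (glutaminyl) at 0.15. When WT array 3 was left out, Tars, Yars and Lars were at 0.03, 0.02 and 0.01, while Cars, Sars, Nars, Eprs and Qars turned to -0.07, -0.15, -0.06, -0.06 and -0.05. Below 0 were Wars (tryptophanyl) at -0.20, Hars (histidyl) at -0.16, Mars1 (methionyl) at -0.02 and Vars (valyl) at -0.01. They were at -0.57, -0.49, -0.04 and -0.25 without WT array 3. Mars1 had the narrowest range of all 33, from 12.88 to 13.29 over the 8 arrays, and its 95% interval ran from -0.43 to 0.40. Mars1 and Vars turned to 0.03 and 0.03 after median centring.

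Among mitochondrial enzymes, Lars2, the leucyl enzyme, had the smallest limma p of all synthetases. Lars2 was 6.77, 6.37 and 6.54 in KO and 7.46, 7.08, 7.23, 6.93 and 6.76 in WT. KO arrays 2 and 3 lay below all WT arrays, and KO array 1 just overlapped the lowest, WT array 5. The KO mean was 6.56 ± 0.20 (SD, n = 3). The WT mean was 7.09 ± 0.27 (SD, n = 5). KO minus WT was thus -0.53 with a standard error of 0.22. In limma the unadjusted p was 0.0393 and the adjusted p 0.998, and the exact permutation p was 0.0536. It was -0.50 without WT array 3, with an exact permutation p of 0.0857. Leaving out any 1 array left the difference between -0.64 and -0.44.

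Hars2, the histidyl enzyme of mitochondria, was 7.74, 8.30 and 8.02 in KO and 7.66, 7.80, 7.93, 7.42 and 6.71 in WT. KO arrays 2 and 3 lay above all WT arrays, and KO array 1 lay inside their range. The difference was 0.52 with a standard error of 0.30 (exact permutation p = 0.143), and 0.62 without WT array 3 and 0.32 without WT array 5. Rars2, the arginyl enzyme, was 8.05, 8.27 and 6.92 in KO and 7.33, 7.17, 6.05, 7.91 and 7.84 in WT. Its difference of 0.49 had a standard error of 0.47 (exact permutation p = 0.429), and it was 0.18 without WT array 3 and 0.90 without KO array 3. Tars2, the threonyl enzyme, was 6.74, 6.87 and 6.61 in KO and 6.63, 6.38, 6.10, 7.15 and 6.19 in WT. Its difference of 0.25 had a standard error of 0.27 (exact permutation p = 0.357), and it was 0.16 without WT array 3. The groups overlapped in Hars2, Rars2 and Tars2.

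**Figure D2:**
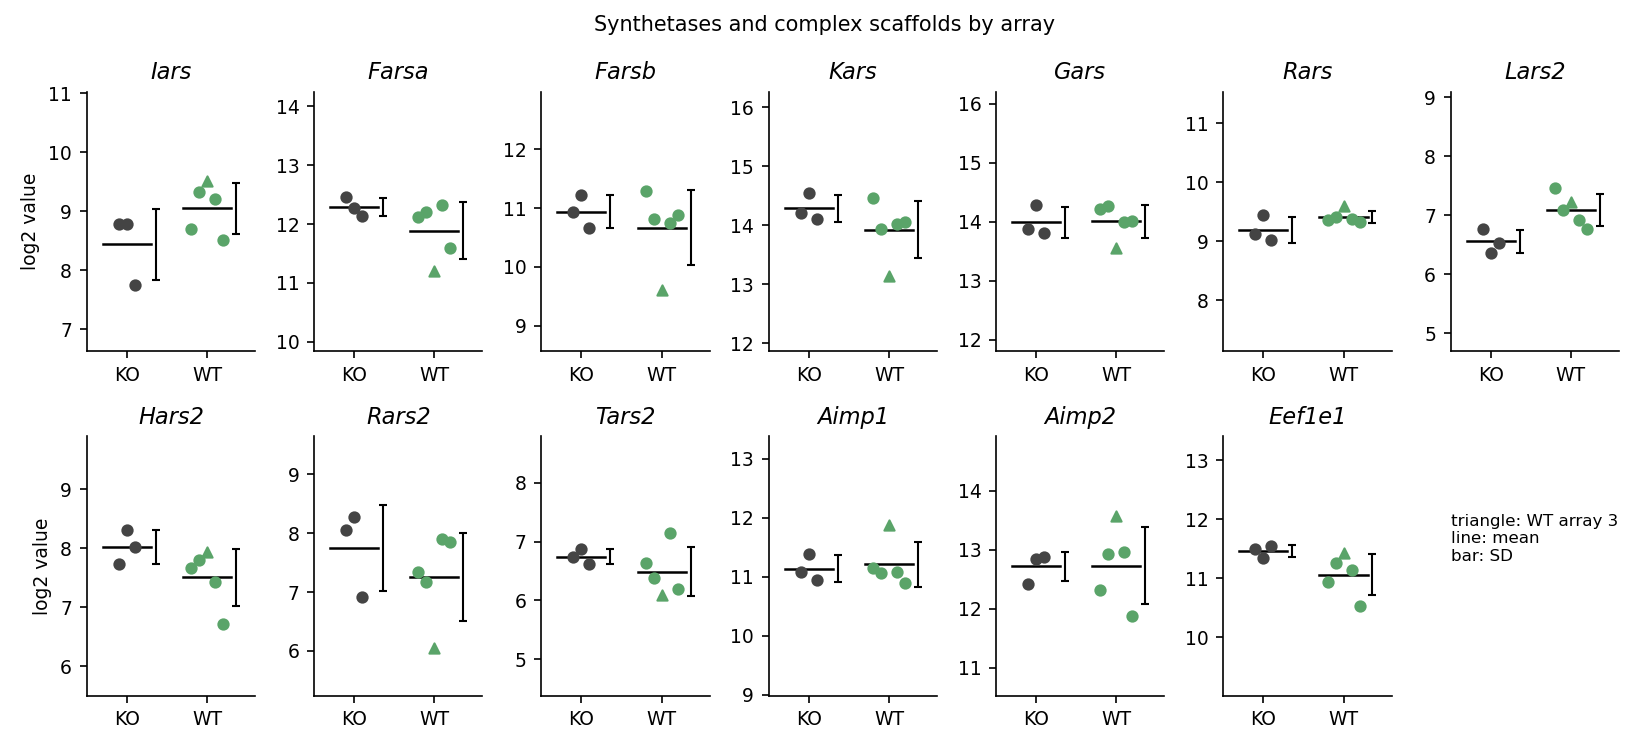
Values on the log2 scale of 10 synthetase genes and the 3 scaffold genes in KO (n = 3) and WT (n = 5) arrays, each point an array, the line the mean and the bar the SD. Every panel spans the same number of log2 units, and WT array 3, drawn as a triangle, is the lowest WT point in Farsa, Farsb, Kars, Gars, Rars2 and Tars2 and the highest in Iars, Rars, Hars2, Aimp1, Aimp2 and Eef1e1.

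The other mitochondrial members ran from -0.22 to 0.36. Cars2 (cysteinyl) was at 0.36, Nars2 (asparaginyl) at 0.21, Mars2 (methionyl) at 0.21, Sars2 (seryl) at 0.17, Fars2 (phenylalanyl) at 0.13, Vars2 (valyl) at 0.12 and Pars2 (prolyl) at 0.11. Yars2 (tyrosyl) was at 0.06, Iars2 (isoleucyl) at 0.04, Ears2 (glutamyl) at -0.01 and Aars2 (alanyl) at -0.22. With WT array 3 left out, Mars2, Iars2, Vars2 and Yars2 turned to -0.18, -0.20, -0.07 and -0.03. Without KO array 3 Cars2 turned to -0.12, and without KO array 2 Nars2 turned to -0.30. Sars2 was at 0.069 and Fars2 at 0.060 without KO array 2, where Aars2 was at -0.057, and Pars2 was at 0.004 without WT array 4. Ears2 turned to 0.06 under quantile scaling and 0.04 under median centring. Aars2, Ears2 and Pars2 were dim, on only 3 arrays each brighter than the median row. Wars2, the tryptophanyl enzyme and the only member left untested, lay below it on all 8 arrays, at 3.61, 3.72 and 4.65 in KO and 4.09, 3.93, 3.90, 4.77 and 4.13 in WT.

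A cytosolic and a mitochondrial member for the same amino acid could be set side by side in 15 pairs, 2 of them sharing Eprs and 2 sharing Fars2. The log ratio within each array was compared between KO and WT. In 9 of the 15 pairs the cytosolic member had the higher difference, and in 5 without WT array 3. The leucyl pair was farthest apart, with Lars at 0.45 and Lars2 at -0.53. The gap of 0.98 between them did not exceed array-to-array spread (exact permutation p = 0.161), and without WT array 3 it was 0.51 (exact permutation p = 0.0857 over 35 splits). The arginyl, histidyl and isoleucyl pairs went the other way. Rars minus Rars2 was -0.71 (exact permutation p = 0.268), Hars minus Hars2 was -0.68 (exact permutation p = 0.339) and Iars minus Iars2 was -0.66 (exact permutation p = 0.286). With WT array 3 left out these were -0.36, -1.11 and -0.30, and the histidyl pair had an exact permutation p of 0.0571. These p-values are not adjusted, and 0 of the 15 pairs were under 0.05 with all arrays.

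**Figure D3:**
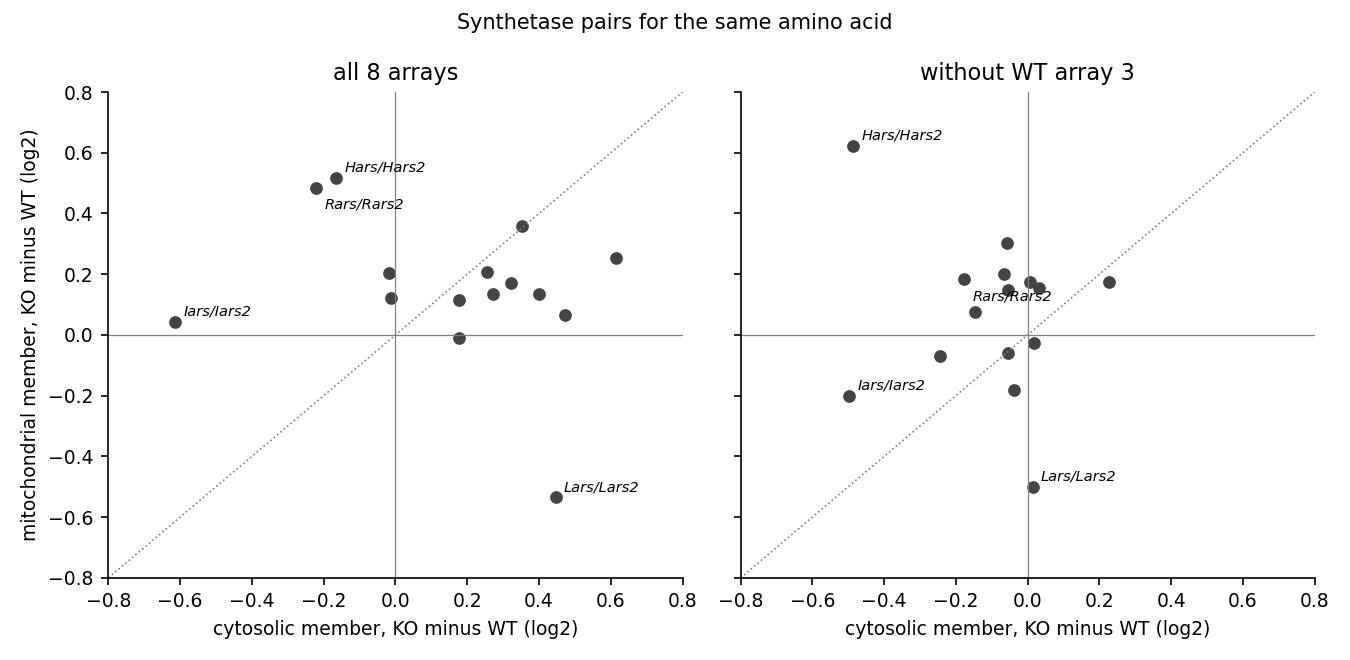
KO minus WT difference of the cytosolic member against that of the mitochondrial member for 15 pairs, on the log2 scale, with all 8 arrays at left and without WT array 3 at right. The dotted line marks equal differences, and Lars/Lars2 lies farthest below it at left, at 0.45 and -0.53.

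The cytosolic synthetases were low on 1 array. WT array 3 was the lowest of the 8 arrays in 15 of 18 cytosolic synthetases, against 36.5% of all tested genes and 42.8% of the 6382 genes at least as bright as the dimmest cytosolic member. It was the lowest in 7 of 15 mitochondrial members. The median distance of WT array 3 from the mean of the other 4 WT arrays was -1.25 in cytosolic members, -0.46 in mitochondrial members and -0.15 in all genes. WT array 3 lay more than 1 log2 unit below the other WT arrays in 11 of 18 cytosolic members and 3 of 15 mitochondrial members, against 22.5% of all genes. These are values of a single array with no replicate and no test. The same array had the highest means of 3 marker lists. The B cell markers were at 5.33, against 4.66 at the lowest WT array. T and NK cell markers were at 5.27 against 4.36, and stromal and endothelial markers at 5.44 against 5.08. In the tested markers of these lists, WT array 3 lay at a median distance of 0.91, 1.31 and -0.25, in that order. Of each of these 3 lists, 3 markers were below the median row on every array, and the part of such cells in the low synthetase values was not tested. Quantile normalization left the cytosolic count at 15 and gave medians of -1.09 and -0.39, and median centring gave -1.34 and -0.55.

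**Figure D4:**
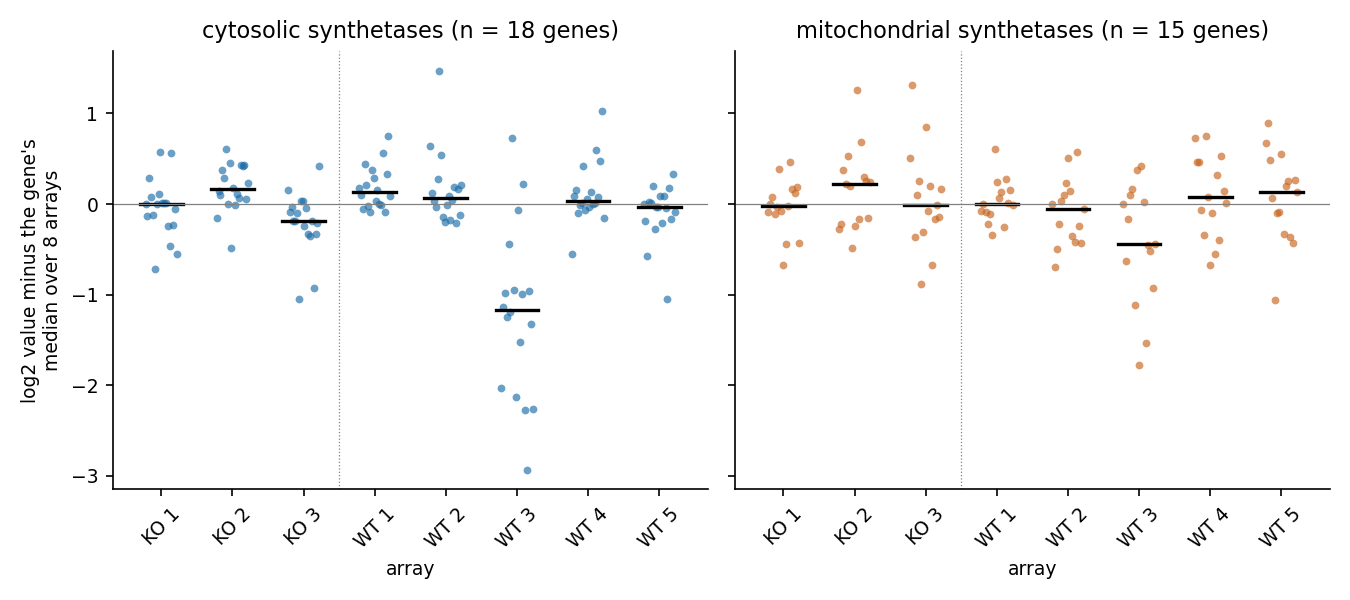
Each tested synthetase on each array as its log2 value minus its own median over the 8 arrays, with 18 cytosolic genes at left and 15 mitochondrial genes at right, and black lines at the median of each array. The cytosolic median is -1.17 on WT array 3 and between -0.18 and 0.16 on the other arrays, and the mitochondrial median is -0.44 on WT array 3.

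On the other 7 arrays the cytosolic members' median deviation from each gene's own median lay between -0.18, on KO array 3, and 0.16, on KO array 2. KO array 3 was below the gene's median in 14 of 18 cytosolic members and was the lowest array in Iars, Rars and Mars1, the 3 that were not lowest on WT array 3. The mitochondrial median lay between -0.05, on WT array 2, and 0.22, on KO array 2.

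The cytosolic members with the largest distances on WT array 3 were Tars at -2.92, Sars at -2.35, Yars at -2.27, Lars at -2.16 and Cars at -2.10. Tars, for example, was 7.20 there, and its other WT values lay between 9.93 and 10.31. Iars at 0.59 and Rars at 0.22 exceeded the other WT arrays' mean, and Mars1 at -0.09 lay near them. All 3 encode enzymes of the multisynthetase complex. Of the 7 tested enzymes of that complex, 4 were lowest on WT array 3, with a median distance of -0.97, and of the 11 cytosolic members outside it, 11 were, with a median of -1.61. KO minus WT medians were 0.15 and 0.27 for these groups, and -0.05 and -0.07 without WT array 3. Lowest among mitochondrial members were Mars2 at -1.93, Rars2 at -1.51 and Iars2 at -1.21, while their cytosolic partners Mars1, Rars and Iars were the 3 exceptions named above. The 4 genes with the amino acid response letters were at -2.92 (Tars), -2.27 (Yars), -0.56 (Gars) and 0.59 (Iars).

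The scaffolds of the complex were high on WT array 3. Aimp1, which encodes the scaffold p43, was 11.09, 11.39 and 10.94 in KO and 11.15, 11.05, 11.87, 11.07 and 10.89 in WT. Aimp2, encoding p38, was 12.43, 12.85 and 12.88 in KO and 12.32, 12.94, 13.57, 12.96 and 11.88 in WT. WT array 3 was the highest array in both genes, as it was in 25% of all tested genes. It lay 0.83 and 1.04 above the mean of the other WT arrays. The KO minus WT difference was -0.07 for Aimp1 (exact permutation p = 0.857) and -0.01 for Aimp2 (exact permutation p = 1.0). Without WT array 3 they turned to 0.10 and 0.20. Eef1e1, encoding the smallest scaffold, was 11.49, 11.34 and 11.55 in KO and 10.94, 11.26, 11.42, 11.13 and 10.52 in WT, a difference of 0.41 with a standard error of 0.24 (exact permutation p = 0.0893). Here KO arrays 1 and 3 lay above all WT arrays. With WT array 3 left out, all 3 KO arrays lay above, with a difference of 0.50, and the same lack of overlap was found in 5.55% of all genes.

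**Figure D5:**
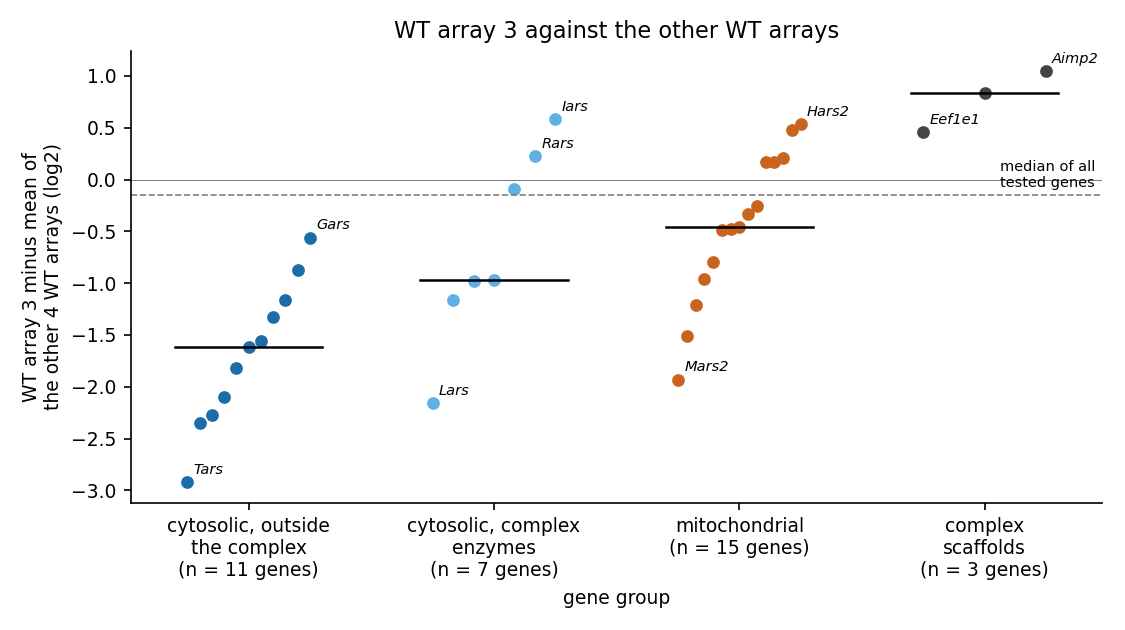
Log2 distance of WT array 3 from the mean of the other 4 WT arrays for each gene, by group, with the group median as a black line and the median of all tested genes (-0.15) as a dashed line. All 11 cytosolic synthetases outside the complex lie below 0, and the 3 scaffolds lie above it at 0.46 to 1.04.

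Synthetases fall into classes I and II by the fold of the catalytic domain, and here Eprs was counted by its glutamyl part as class I. Of 18 tested class I members, 11 had a difference above 0, with a median of 0.09, and of 15 class II members 12 did, with a median of 0.25. When WT array 3 was left out, these were 4 of 18 with a median of -0.06 and 10 of 15 with a median of 0.07. WT array 3 was the lowest in 12 class I and 10 class II members.

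Genes around the charging step are given by counts, from lists fixed by name, and limma called 0 genes in each. The kinases and factors of the amino acid response had 4 of 8 tested members above 0 and a median of -0.06, and 0.11 without WT array 3. WT array 3 was the highest array in 4 of these 8 and the lowest in 2, at a median distance of 0.35 from the other WT arrays' mean. Eif2ak4, which encodes GCN2, was 10.27, 10.45 and 9.61 in KO and 9.35, 8.74, 7.56, 9.81 and 9.90 in WT, a difference of 1.03 that was 0.66 without WT array 3. Eif2ak2, encoding the RNA-activated kinase PKR, differed by -0.46. Amino acid synthesis genes of the ATF4 response had 6 of 8 above 0 with a median of 0.36, and 0.25 without WT array 3. Got1, an aspartate aminotransferase, differed by 1.61, and by 0.90 without WT array 3, and Asns, asparagine synthetase, by 0.70 and 0.55. Amino acid transporters had 6 of 8 above 0 with a median of 0.14, and -0.05 without WT array 3. In that list the glutamine carrier Slc1a5 differed by -0.25, or -0.23 without WT array 3, and the glycine carrier Slc6a9 by 0.24, or 0.11. The list of amino acid sensing by mTORC1 had 7 of 8 above 0 with a median of 0.47, and 0.04 without WT array 3. In it were Rragc, a Rag GTPase, at 1.25 and Sesn1, a sestrin, at 1.03, and these were at 0.28 and 0.51 without WT array 3. The list holds Lars and Tars themselves, and WT array 3 was the lowest array in 7 of the 8.

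Of 8 tested partners of mitochondrial charging, such as transfer RNA modifying enzymes, 6 were above 0 with a median of 0.17, and 0.11 without WT array 3. Trmu, which thiolates mitochondrial transfer RNA, differed by 0.61, and Trnt1, which adds the CCA end, by 1.35 and by 0.49 without WT array 3. Mitochondrial translation factors had 5 of 10 above 0 and a median of 0.03, and -0.08 without WT array 3, with the initiation factor Mtif2 at 0.37 and the elongation factor Guf1 at 0.41 or, without WT array 3, 0.16. Cytosolic elongation factors, with Eef1e1 on the list, had 7 of 8 above 0 with a median of 0.20, and 0.08 without WT array 3, and Eef1b2, a nucleotide exchange subunit, differed by 0.37. Of 4 synthetase-like and proofreading genes, 3 were above 0 with a median of 0.001, where Prorsd1, a relative of a prolyl proofreading domain, differed by 0.19 and Dtd2, an aminoacyl-tRNA deacylase, by -0.05.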

How the data were processed

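Biotin-labelled RNA of sorted cells, extracted with a kit for small samples per the labels' protocols, was hybridised to 8 arrays. Values come from the authors as log2 levels in a single matrix of 28846 rows. The log base was read from the range, 1.89 to 18.6, and the sources used here do not give the software, background correction or normalization. Rows were named through the platform annotation, which gave 19572 rows 1 symbol. Coordinates come only from the promoter table.

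KO and WT were compared with limma 3.58.1 in R 4.3.3 (two-sided, moderated by eBayes), taking the deposited log2 values as they stand, with Benjamini-Hochberg adjustment over all 9920 genes and a threshold of 0.05. Single genes and pairs had an exact permutation test over 56 splits, or 35 with 7 arrays. Array-by-array values are given for the 4 cytosolic and 4 mitochondrial members of smallest p, for Gars, Kars, Farsa, Farsb and the scaffolds, and other pathway lists name up to 2 genes of smallest p, beside Pik3ca. Members and lists were chosen with earlier results of these data known. Array numbers limit the precision. The fit was tested on simulated data with 200 changed genes. Alternatives left out each array, dropped or raised the filter, used quantile normalization, centred arrays on the median, raised low values to the 25th percentile, weighted arrays, used a trended robust prior, took the most variable row or blocked on replicate number. Figures were drawn with matplotlib 3.10.9.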

Additional observations from a re-analysis of the deposited data

Results flagged for a closer look

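For 55 values, the gap between the most extreme of the 5 WT arrays and the next was taken as a share of their range, with a limit of 0.71. Chance gives about 1 in 20 beyond that limit for independent values. All 55 share the same 5 arrays, WT array 3 among them, so that rate is no yardstick here. Beyond the limit were 12 values, and 10 of the 12 were lows on WT array 3. Among synthetases these were Tars at 0.877, Yars at 0.849, Lars at 0.801, Nars at 0.778, Eprs at 0.760 and Qars at 0.758, and the median deviation of all cytosolic members was at 0.876. Mitochondrial members had 1, Wars2 at 0.740, as a high on WT array 4 in a gene below the median row on every array. Aimp1 was at 0.730 as a high on WT array 3. Outside the synthetases, Pik3ca was at 0.917, Got1 at 0.754 and Rragc at 0.750, all as lows on WT array 3.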

How the results depend on the processing

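In each of the 17 alternatives limma called 0 genes and 0 synthetases, with 217 to 592 genes at an unadjusted p under 0.05. The cytosolic median ran from -0.06 to 0.31 and the mitochondrial from 0.07 to 0.22 over the leave-one-out fits. Array weights gave -0.03 and 0.09. The replicate block gave 0.34 and 0.22. In it WT arrays 4 and 5, with no KO array of their number, do not enter the difference. WT array 3 thus weighs more there than in the main fit. Same-numbered arrays' deviations correlated at 0.02, -0.02 and 0.14, so that the numbers were not taken as pairs. Differences that turned sign follow, and the cause was not tested. Quantile normalization gave Ears2 0.0583. Median centring gave Aimp2 0.0332, Ears2 0.0361, Gars 0.0267, Mars1 0.0258 and Vars 0.0319. Array weights gave Aimp1 0.0715, Aimp2 0.16, Cars -0.0169, Eprs -0.0373, Iars2 -0.0953, Mars2 -0.19, Nars -0.0295, Qars -0.0127, Sars -0.16, Vars2 -0.0445 and Yars2 -0.0406. The replicate block gave Aars2 0.0724, Dtd2 0.0563, Ears2 0.28, Sars2 -0.0336, Vars 0.11 and Wars 0.16.

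Leaving out 1 array gave these ranges. Aimp1 ran from -0.20 to 0.0956, Aimp2 from -0.23 to 0.20, Cars from -0.0662 to 0.60, Cars2 from -0.12 to 0.65, Dtd2 from -0.15 to 0.0486, Ears2 from -0.14 to 0.19 and Eprs from -0.0561 to 0.26. Gars ran from -0.17 to 0.0709, Hars from -0.50 to 0.18, Iars2 from -0.20 to 0.43, Mars1 from -0.12 to 0.0916, Mars2 from -0.23 to 0.53, Nars from -0.0576 to 0.36 and Nars2 from -0.30 to 0.55. Pik3ca ran from -0.39 to 0.0417, Qars from -0.0476 to 0.28, Sars from -0.15 to 0.57, Vars from -0.25 to 0.13, Vars2 from -0.0700 to 0.23, Wars from -0.57 to 0.0201 and Yars2 from -0.0617 to 0.27.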
